A study of Mus musculus with 5 samples.

Results

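Tac1-high enterochromaffin (EC) cells are serotonin-producing cells of the gut epithelium that also carry much RNA of Tac1, the precursor gene of substance P and neurokinin A. They were chosen by a rule on measured values. In the droplet library, barcodes with more than 1000 genes and under 10% mitochondrial UMIs (unique molecular identifiers, each standing for 1 captured RNA molecule) were kept. Among these, EC cells had a level of at least 10 UMIs per 10000 UMIs of the cell for Tph1, which encodes the rate-limiting enzyme of serotonin synthesis, under 200 for Cck, under 500 for Gip, and under 500 for the goblet genes Zg16, Fcgbp, Clca1 and Spink4 together. The rule found 1737 EC cells, and 123 of them, with a Tac1 level of at least 30, were Tac1-high. The members made up 7.08% of EC cells (95% exact Clopper-Pearson interval 5.92 to 8.39%) and 1.30% of the 9451 cells kept (1.08 to 1.55%). The other 1614 EC cells, with Tac1 under 30, are called Tac1-low.

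The droplet library was a single pool of tdTomato+ cells sorted from the small intestine epithelium of 4 untreated C57Bl/6J mice aged 6 weeks, 2 of each sex, that carried Neurog3-Cre and R26-LSL-tdTomato. Neurog3-Cre acts in progenitors of enteroendocrine cells (EECs), and the reporter stays on in their descendants, which here also include goblet and other cells. Bulk RNA-Seq came from C57Bl/6J mice aged 6 to 8 weeks with Cck-Cre and R26-LSL-tdTomato, either fasted overnight or given the liquid diet Ensure after the fast (refed). Each of the 12 libraries held tdTomato+ (CCK+) or tdTomato- (CCK-) epithelial cells of a single mouse, 3 libraries in each of 4 groups. The letters A to F name libraries in both fractions, and whether a letter marks the same mouse is not stated. The GEO titles of all bulk groups name CCK+ cells, whereas the cell-type labels name 2 CCK+ and 2 CCK- groups. Cck was at 14837 to 32592 normalized counts in the libraries labelled CCK+ and at 27.6 to 86.0 in those labelled CCK-. CCK+ cells are all cells with a history of Cck expression, a mixture of EEC types, and the bulk libraries do not isolate EC cells.

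EC cells are the main source of serotonin in the body. They make it from tryptophan with the enzymes Tph1 and Ddc, load it into granules with a vesicular monoamine transporter, and release it onto nerve endings and neighboring cells when chemical or mechanical stimuli open their ion channels. Substance P and neurokinin A are tachykinins, short peptides that act on neurokinin receptors of neurons, smooth muscle and immune cells, and in the mouse intestine EC cells that carry Tac1 lie mostly in crypts.

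The coding bases of both peptides are shown because the level of Tac1 defines these cells. They were read from GRCm38.p6 at the positions of the annotated Tac1 transcripts on the plus strand, 33 bases in exon 3 at chr6:7556732-7556764 and 30 bases at chr6:7559101-7559130, in coding exons. Capitals mark the last 15 bases of each, 5 codons for the ending that the tachykinins share in large part.
substance P: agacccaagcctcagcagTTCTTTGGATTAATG
neurokinin A: cataaaacagattccTTTGTTGGACTAATG
Of 4 annotated protein-coding Tac1 transcripts, 3 held the substance P bases and 2 held the neurokinin A bases. On GRCm38.p6, Tac1 lies at chr6:7554879-7565834 (plus strand), Vim at chr2:13573927-13582826 (plus), Ucn3 at chr13:3940688-3945349 (minus) and Trpa1 at chr1:14872648-14918862 (minus). The droplet library counted transcript ends, so that the UMIs of Tac1 do not say which peptide was encoded.

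The level of Tac1, on which the cells were chosen, ranged from 30.5 to 237 UMIs per 10000 over the members, with a median of 58.5. The 3 cells just above the limit had Tac1 levels of 30.5, 30.6 and 30.8, from 7 to 12 UMIs each, and the 3 cells just below it had 29.5, 29.5 and 29.7, from 8 to 10 UMIs. The limit therefore cut through a continuous range rather than a gap. Tph1, also part of the rule, had a median of 28.3 in the members and 46.7 in Tac1-low EC cells. Summed over cells, Tph1 was at 32.4 UMIs per 10000 in members and 49.8 in Tac1-low cells.

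**Figure D1:**
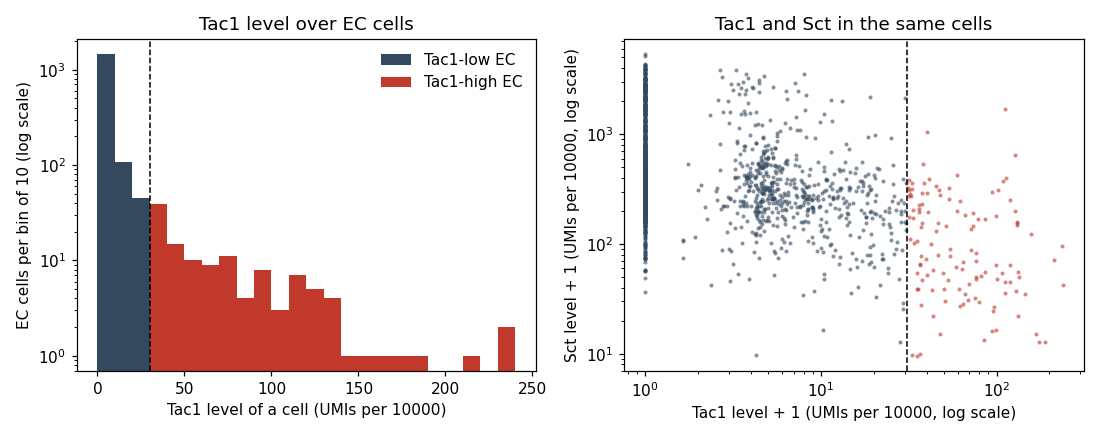
Left, the number of EC cells (log scale) by Tac1 level in UMIs per 10000, with the limit of 30 marked. Right, the Tac1 level against the Sct level of each EC cell, both with 1 added and on log scales. The 123 members lie to the right of the limit in the tail of a continuous range, and their median Sct level was 82.4 against 353 in the other EC cells.

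With 1 library there is no replicate and no test. Levels below are UMIs summed over the cells of a group per 10000 summed UMIs, with 95% exact Poisson intervals that cover counting error only, as do the binomial intervals. A gene was counted as higher or lower when the ratio of the groups was at least 2 or at most 0.5, among the 1403 genes whose mean level over both groups was at least 1. All 1403 genes were read in the same cells that the rule divided, so that the ratios describe the groups and were not tested. Members had a median of 3267 UMIs and 1424 genes, Tac1-low cells 2929.5 UMIs and 1321 genes, and goblet cells, which served as the cells that should lack EC genes, 6257.5 UMIs. The median share of mitochondrial UMIs was 1.57% in members and 2.30% in Tac1-low cells. Of the genes read, 75 (5.35%) were higher and 72 (5.13%) were lower in the members, and the median ratio over all 1403 genes was 1.04. The 75 include Tac1, which the rule fixed. Cells with a UMI of a Y-linked gene and no Xist, and cells with Xist and no Y-linked UMI, can be read as separate pools of the male and female mice. Of the 75 higher genes, 73 were above 1 in both pools and 52 were at least 2-fold higher in both, from 21 and 30 members. Of the 72 lower genes, 71 were below 1 in both pools and 45 were past 2-fold in both. Both pools are parts of the cells in which the genes were called. Their agreement was therefore in part fixed in advance and is no separate support.

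The markers of the group were Tac1, Tph1, Vim, Slc18a2 and Mnx1. Vim, which encodes the intermediate filament protein vimentin, had the highest ratio after Tac1, with a level of 9.64 (8.75 to 10.6) against 0.511 (0.453 to 0.576), a ratio of 18.9 (16.2 to 22.0). A Vim UMI was found in 103 members, 83.7%, in 9.79% of Tac1-low EC cells and in 0.710% of goblet cells. After every cell was thinned to 2000 UMIs, which left out 1 member and 56 Tac1-low cells, the shares were 70.5%, 6.80% and 0.142%. Of 7 mesenchyme markers, 6, among them Col1a1, Col3a1 and Dcn, had no UMI in any member, and the list summed to 0.0910 in members and 0.245 in Tac1-low cells.

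Slc18a2, the vesicular monoamine transporter 2, was at 0.932 (0.669 to 1.26) against 0.149 (0.118 to 0.186), a ratio of 6.24. It had a UMI in 29 members (23.6%), in 4.03% of Tac1-low cells and in no goblet cell of 704, and thinning gave 13.9% and 2.70%. Mnx1, a homeobox transcription factor, was at 0.387 against 0.0411, a ratio of 9.41 (4.69 to 18.6). Its UMIs lay in only 11 members (8.94%) and 1.05% of Tac1-low cells, which is too sparse to say in which members Mnx1 RNA was present. Tac1 and Tph1 were fixed by the rule. Of the 3 markers that the rule did not name, Vim was found in most members, and Slc18a2 and Mnx1 in a minority.

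The other genes with the highest ratios did not form 1 functional class. Ucn3, the peptide hormone urocortin 3, was at 6.82 (6.07 to 7.64) against 0.971 (0.889 to 1.06) and had a UMI in 82 members (66.7%), in 14.5% of Tac1-low cells and in 1.42% of goblet cells. Thinned shares for Ucn3 were 59.0%, 11.6% and 0.426%. Several of the genes encode metabolic enzymes. Glud1, glutamate dehydrogenase, was at 9.03 against 0.866, a ratio of 10.4 (9.09 to 11.9). Gstt1 and Gstk1, glutathione transferases, were at 22.1 against 3.50 and 4.18 against 0.724. Psat1, which makes phosphoserine in serine synthesis, was 5.04 times as high as in Tac1-low cells, Hibadh of valine breakdown 5.17 times, and Acsl6, an acyl-CoA synthetase, 4.99 times. Car2, carbonic anhydrase 2, was at 2.82 against 0.261, and in the male and female pools the ratio of Car2 was 4.92 and 10.8. Fxyd6, a regulator of the sodium pump, was at 5.64 (4.96 to 6.39) against 0.823, with a UMI in 101 members. Dusp2, a phosphatase of MAP kinases, was at 1.84 against 0.170, and Slc5a9, a sodium-dependent sugar transporter, at 1.73 against 0.302. Hacd1, of fatty acid elongation, and C2cd4b ended the list of 15 at ratios of 4.77 and 4.17.

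**Figure D2:**
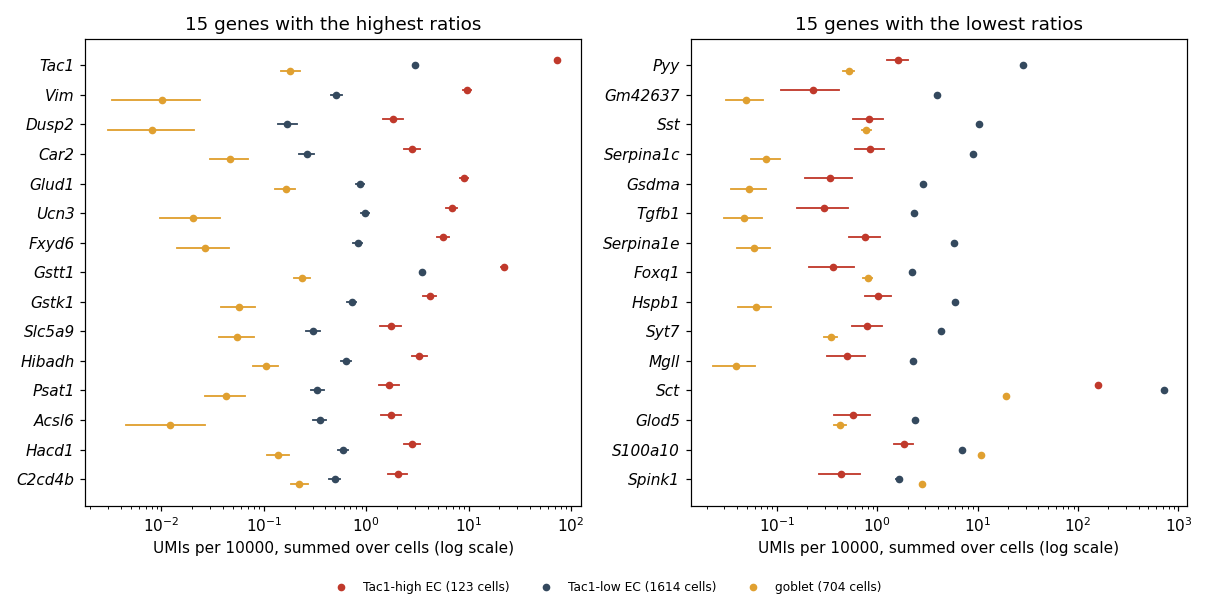
Levels in UMIs per 10000, summed over cells (log scale), of the 15 genes with the highest and the 15 with the lowest ratios, in Tac1-high EC, Tac1-low EC and goblet cells. Bars are 95% Poisson intervals. Vim stands at 9.64 against 0.511 and Serpina1c at 0.841 against 8.89. The intervals of the 2 EC groups stay apart for each gene drawn, but the genes were picked by their ratios between these groups.

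Ccl5 and Gzma, genes of T and natural killer cells, were among the 75 higher genes because of 1 member. That barcode held 209 of the 216 Ccl5 UMIs and 78 of the 83 Gzma UMIs, together with Cd3e, Cd3g, Cd8a and Gzmb. Without cells that held 3 or more UMIs of T cell genes, Ccl5 was at 0.161 in members and 0.258 in Tac1-low cells, and Gzma at 0.115 and 0.117. That barcode gave 1 of the 424 Vim UMIs and 1 of the 81 Dusp2 UMIs. The 9 immune markers summed to 0.955 in members and 0.706 in Tac1-low cells, with Lyz2 at 0 in members.

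The serotonin genes did not move as 1 group. Of 12 listed genes, 6 were abundant enough to be read, and 2 were higher and none lower in members, with a median ratio of 1.04. For this list and those below, the shares over all 1403 genes read were 5.35% higher and 5.13% lower. The lists were chosen with earlier results known, and their counts were not tested. Ddc, which turns 5-hydroxytryptophan into serotonin, was at 8.21 (7.38 to 9.10) against 3.40 (3.25 to 3.56), with a UMI in 94.3% of members, 61.8% of Tac1-low cells and 10.8% of goblet cells. Gch1, the first enzyme in the synthesis of the cofactor of Tph1, was at 6.89 against 3.01, a ratio of 2.29. Tph1 itself had a ratio of 0.651 (0.617 to 0.686).

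Among 13 genes of the tachykinin system, 5 were read and only Tac1, which the rule fixed, was higher. Tac2 and Tac4, the other tachykinin precursors, and the receptor genes Tacr1, Tacr2 and Tacr3 had no UMI in members, where a count of 0 allows up to 3 UMIs among 439745. In members and Tac1-low cells together only 8 of the 13 genes had a UMI, so that these zeros are not read as a trait of the members. The peptide hormones divided. Of 22 listed, 10 were read. Of these, 2 were higher (Tac1, fixed by the rule, and Ucn3) and 6 were lower (Ghrl, Sct, Nts, Pyy, Cartpt and Sst), with a median ratio of 0.450. Sct, secretin, a hormone of duodenal S cells, was at 159 (155 to 163) in members against 719 (717 to 721). Pyy, peptide YY, was at 1.61 against 28.1, and 64.8% of the Pyy UMIs of members were in 1 cell. Cartpt was at 8.82 against 18.8.

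The chemosensory list gave 1 higher gene and 1 lower of 3 read. Trpa1, an ion channel that opens to electrophilic irritants, was at 7.41 (6.63 to 8.26) against 1.80 (1.68 to 1.91), with a UMI in 103 members (83.7%), 32.1% of Tac1-low cells and 1.70% of goblet cells. Thinned shares for Trpa1 were 69.7%, 25.9% and 0.426%. Trpm2, a calcium-permeable channel, was lower. Piezo2, a mechanically gated channel, had no UMI in members, which is not read as a trait of the group. Among 4 excitability genes read, 1, Cacna2d1, was lower.

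Of 30 listed transcription factors, 8 were read and 3 were higher, Fev, Nkx2-2 and Hmgn3, against 5.35% of all genes read. Fev, an ETS factor of serotonin cells, was at 2.89 (2.41 to 3.44) against 0.924 (0.844 to 1.01). Nkx2-2, a homeobox factor that EC cells require, was at 1.66 (1.30 to 2.09) against 0.433 (0.379 to 0.493). Hmgn3, which binds nucleosomes, was at 4.50 against 1.24. Lmx1a, another factor of EC cells, had a ratio of 0.995 (0.790 to 1.24). Below the level at which ratios were counted, Rfx6 was at 0.750 against 0.168 and St18 at 0.478 against 0.105.

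Neurog3, the factor of EEC progenitors, had 10 UMIs in 5 members and 1 UMI in 1614 Tac1-low cells, a ratio of 122 with a counting interval of 17.3 to 5287. All but 5 members had no Neurog3 UMI. Of 15 progenitor and early genes, 5 were read and 1, Gadd45a, a stress-inducible growth arrest gene, was higher, at 5.69 against 2.58.

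Of 12 granule genes read, 1 was past 2-fold, Rab3c, a vesicle GTPase, at 4.21 (3.62 to 4.86) against 1.34. The granins Chgb and Chga were at 634 against 356 and at 205 against 126, ratios of 1.78 and 1.62. Among 5 exocytosis genes read, Syt7, a calcium sensor of vesicle fusion, was lower, at 0.796 (0.554 to 1.11) against 4.31 (4.14 to 4.49). Among 9 cytoskeleton genes, Vim and Map1b were higher and Tubb2b was lower.

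The lowest ratios belonged to genes of other EC cells as well as to hormones. Serpina1c, a serine protease inhibitor, was at 0.841 (0.592 to 1.16) against 8.89 (8.64 to 9.15), and its paralog Serpina1e at 0.750 against 5.80. The Serpina1 genes are near-identical copies, so that the split of UMIs between them is uncertain. Tgfb1, a growth factor, was at 0.296 against 2.33, Gsdma, a gasdermin, at 0.341 against 2.84, and Hspb1, a small heat shock protein, at 1.02 against 5.98. Foxq1, a forkhead factor, Mgll, a monoacylglycerol lipase, Glod5, S100a10, Spink1 and the transcript Gm42637 completed the 15 together with Pyy, Sst and Sct. Sst was at 0.819 against 10.4.

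Tac1-low EC cells were themselves mixed. Of the 1614, 292 (18.1%) had an Sct level of at least 1000, 272 (16.9%) an Afp level of at least 50, and 580 (35.9%) a Serpina1c level of at least 10, limits set for this comparison. Among the 123 members, 2 cells passed the limit for Sct, 2 passed that for Serpina1c (1.63%, 0.198 to 5.75%), and 43 passed that for Afp (35.0%, 26.6 to 44.1%). Afp, alpha-fetoprotein, was at 62.7 in members and 30.5 in Tac1-low cells. Genes of the members were also found in the Tac1-low cells with high Afp. In these, Trpa1 was at 4.96, Ucn3 at 3.14, Gstk1 at 3.24, Gstt1 at 8.73 and Vim at 1.31, all below the levels of members. In the Tac1-low cells with high Sct, Trpa1 was at 0.189, Ucn3 at 0.0757 and Vim at 0.0851. Against these Sct-high cells 136 genes were higher in the members and 57 were lower.

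The members also differed among themselves along the level of Tac1. EC cells were divided into 1011 with no Tac1 UMI, 451 with a level under 10, 107 from 10 to under 20, 45 from 20 to under 30, and, among members, 64 from 30 to under 60, 42 from 60 to under 120 and 17 at 120 or more. Over these 7 bins Vim was at 0.106, 0.490, 2.38, 4.63, 6.31, 11.7 and 17.2. Chgb went from 330 to 802, Ddc from 3.04 to 9.58, Gch1 from 2.87 to 10.1 and Hmgn3 from 1.21 to 10.4 between the lowest and the highest bin. These genes were thus highest in the 17 cells with most Tac1. Other genes were highest in a middle bin. Afp was at 17.9, 40.6, 70.8, 87.9, 86.0, 49.0 and 7.93 over the bins. Reg4, a secreted lectin, was at 630 in members with a Tac1 level under 60 and at 173 in the top bin. Trpa1 was at 8.04, 7.71 and 4.29 in the 3 bins of members, and Ucn3 at 7.26, 7.91 and 2.48. Further genes were lowest in the top bin. Sct went from 870 in cells with no Tac1 UMI to 97.0, Cartpt from 18.8 to 1.98, Syt7 from 4.76 to 0.165, and Serpina1c from 9.77 to no UMI. Tph1 went from 50.6 to 27.4. Of the 11 Neurog3 UMIs, 10 were in members, 7 of them in the bin from 60 to under 120 and 2 in the top bin. Median UMIs per cell lay between 2815 and 3390 over the bins.

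**Figure D3:**
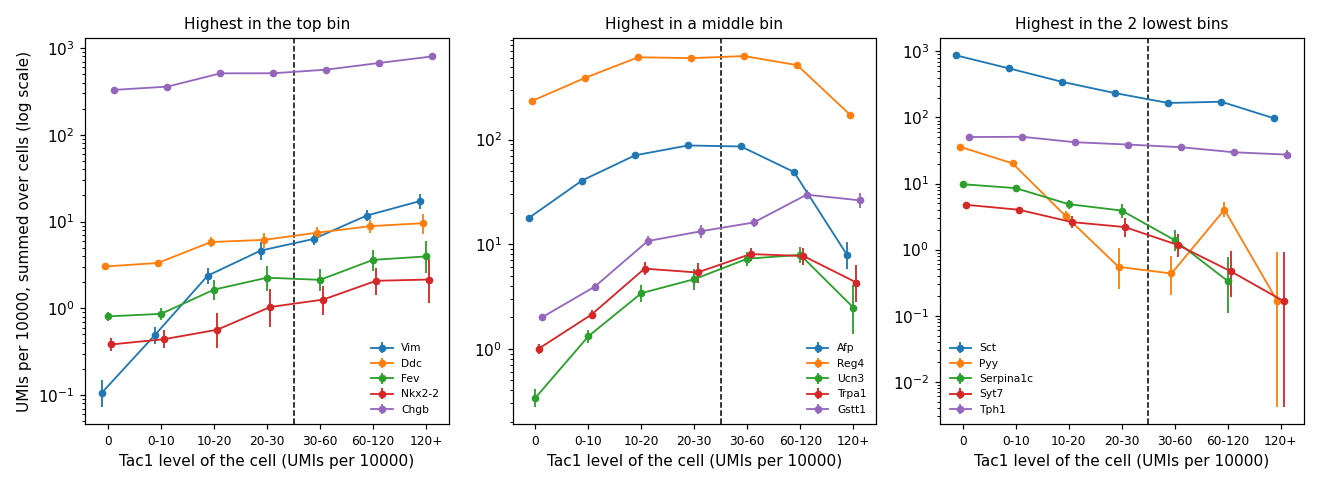
Levels of selected genes in UMIs per 10000, summed over cells (log scale), against 7 bins of the Tac1 level of the cell; bars are 95% Poisson intervals. Vim is highest in the top bin at 17.2, Afp in a middle bin at 87.9, and Serpina1c is at 9.77 in cells with no Tac1 UMI and has no UMI in the top bin, where it is not drawn.

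RNA free in the droplets was read from 410487 barcodes with 1 to 100 UMIs. Goblet genes stood in members at 11.2 to 18.9% of their free level. Of the hormones of other EEC types, 6 stood in the same range or below, with Cck at 14.8%, Gip at 13.2%, Ghrl at 14.8%, Gcg at 13.9%, Nts at 10.4% and Sst at 8.89%. These 6 hormones thus stood in members at or near the share of the goblet genes, and their levels are not read as expression. Whether their UMIs came from free RNA or from low expression was not tested. Above that range, Pyy stood at 38.2%, with most of its UMIs in the single member named above, and Iapp, amylin, at 55.0% from 10 UMIs. Sct stood at 93.1% of its free level, Cartpt at 441%, Ucn3 at 4150% and Tac1 at 6499%. In Tac1-low cells Sst stood at 113% and Pyy at 664% of the free level. The rule capped Zg16, Fcgbp, Clca1, Spink4, Cck and Gip, so that low levels of these genes are in part set by the selection. Muc2 and Tff3, goblet genes outside the rule, stood in members at 18.7 and 16.5%.

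**Figure D4:**
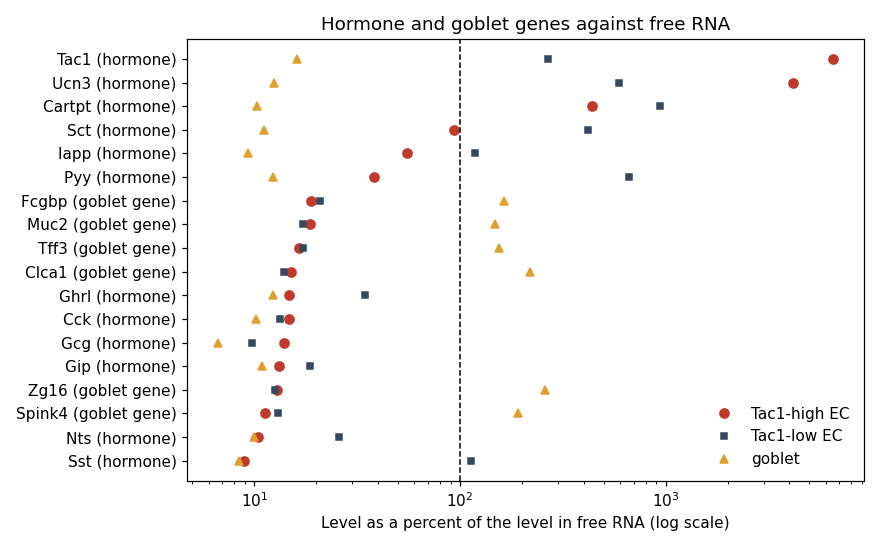
Level of hormone and goblet genes as a percentage of their level in free RNA (log scale), in Tac1-high EC, Tac1-low EC and goblet cells; the dashed line is 100%. In the members Cck, Gip, Ghrl, Gcg, Nts and Sst lie at 8.89 to 14.8%, beside the goblet genes, and Tac1 and Ucn3 lie at 6499 and 4150%. Zg16, Fcgbp, Clca1, Spink4, Cck and Gip were capped by the rule.

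Summed markers of other cell types did not exceed those of Tac1-low cells except for the immune genes of the single barcode above. Some single markers, among them Muc2 and Cck, were higher in members. The rule capped Zg16, Fcgbp, Clca1, Spink4, Cck and Gip in both groups. The 9 goblet markers summed to 341 in members and 359 in Tac1-low cells, the 7 K, X, D, I and N/L cell hormones to 37.7 and 88.8, and 6 of 8 enteric neuron and glia markers were at 0 in members. Of 7 enterocyte markers read, 6 were lower in members, and of 6 Paneth cell markers 5 were lower, against 5.13% of all genes read. The sums over enterocyte markers were 27.4 and 63.0, and those over Paneth markers 37.1 and 75.2, while single Tac1-low cells reached 1137 and 3825 on these lists. On the hormone list single Tac1-low cells reached 2871, and the cell medians were 32.1 in members and 39.1 in Tac1-low cells. One Tac1-low cell held 26.3% of the Ghrl UMIs of its group and 1 held 26.1% of the Sst UMIs. The part of such cells in the 72 lower genes was not tested. A doublet score placed 2 of the 123 members and 52 of the 1614 Tac1-low cells among the 715 highest.

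Promoter bases of Tac1 and Ucn3, the peptide genes among the 15 with the highest ratios, are shown as the regions from which the defining RNA and the second hormone start. They are parts of the 250 bases upstream of a RefSeq start, on GRCm38.p6, without the bases that an annotated transcript of the gene covers. The Tac1 part is chr6:7554811-7554878 on the plus strand, and the Ucn3 part is chr13:3945350-3945599 on the minus strand. For Tac1 only 68 of the 250 bases remain, because the annotated gene begins at 7554879, before that RefSeq start. Capitals mark a CGTCA (the reverse complement of TGACG, the core of cAMP response elements) in Tac1 and a CAGATG E-box, the kind of site that basic helix-loop-helix factors bind, in Ucn3.
Tac1: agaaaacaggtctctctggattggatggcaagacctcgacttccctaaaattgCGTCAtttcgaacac
Ucn3: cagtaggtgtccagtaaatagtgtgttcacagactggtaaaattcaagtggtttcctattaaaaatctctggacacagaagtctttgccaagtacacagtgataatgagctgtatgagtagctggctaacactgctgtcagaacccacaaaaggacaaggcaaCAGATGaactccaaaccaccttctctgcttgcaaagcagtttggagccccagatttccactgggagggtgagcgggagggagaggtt
RefSeq promoter windows, 250 bases before to 50 after a start, matched 13 of the 15 genes with the highest ratios, in 16 windows. Both strands of the 250 bases before the start were searched. CAGATG was in 6 of these 16 windows, those of Acsl6, C2cd4b, Glud1, Tac1 and Ucn3, and in 14.4% of all 32851 windows. TGACG was in 2, those of Gstk1 and Tac1, against 17.8% of all windows, TAATTA, a homeobox core, in 1, that of Tac1, against 4.84%, and TATAAA in 1 against 12.4%. The CAGATG and TAATTA matches of Tac1 lie outside the Tac1 bases printed above, and they may lie inside the annotated gene. A match is a match of letters and not a shown site.

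The bulk libraries were not used by the rule, so that the genes of the members could be tested there. The question was how these genes behave in CCK+ against CCK- cells and after refeeding. In these sorted bulk samples fewer cells of a type and less RNA per cell cannot be told apart. Tac1 was at 238, 127 and 307 normalized counts in the CCK+ libraries of fasted mice and 330, 388 and 826 in those of refed mice. In CCK- libraries Tac1 was at 9.88, 4.02 and 1.83 in fasted and 6.11, 10.2 and 8.21 in refed mice. Every CCK+ library was above every CCK- library. How many of all genes separate the fractions in this way was not counted, so that a lack of overlap here and below is not read as support. The difference of Tac1 was 5.51 on the log2(normalized count + 1) scale (SE 0.355, limma adjusted p = 4.32e-08). All log2 differences below are on this scale and were adjusted by Benjamini-Hochberg over 22042 genes.

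Of the 75 genes higher in members, 42 (56%) were higher in CCK+ cells and 18 (24%) were lower (limma, adjusted p under 0.05). The background was 4324 genes higher (19.6%) and 3107 lower (14.1%) over the whole table, and 35.6% and 24.3% among the 1390 droplet-read genes found in it. The median log2 difference was 0.83 for the 75 genes and 0.08 for the droplet-read genes. Of the 72 genes lower in members, 71 were in the table, and 34 (47.9%) were higher and 13 lower in CCK+ cells. CCK+ cells thus held more RNA of many genes from both sides of the droplet comparison. Immune markers moved too, with 7 of 9 higher in CCK+ cells, and 7 of 10 enterocyte markers were lower; their part in these counts was not tested.

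Among the markers, Vim was at 50.9, 143 and 126 in CCK+ cells of fasted mice, 177, 181 and 236 of refed mice, and 5.28 to 26.7 in CCK- libraries. All CCK+ libraries lay above all CCK- libraries for Vim, by 3.60 (SE 0.367, limma adjusted p = 3.61e-06). Slc18a2 was 1.36 higher (SE 0.173, limma adjusted p = 2.81e-05) and Mnx1 2.89 higher (SE 0.438, limma adjusted p = 0.000129), with Mnx1 at 0 in 4 of the CCK- libraries. Tph1 was 6.18 higher (SE 0.271, limma adjusted p = 8.38e-10). The calls of Vim and Mnx1 were lost in fasted libraries alone. CCK+ libraries also held more RNA of immune markers, and its part in the Vim difference was not tested.

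Ucn3 was 6.84 higher in CCK+ cells (SE 0.496, limma adjusted p = 1.34e-07), Trpa1 6.17, Fev 5.76, Nkx2-2 7.06, Fxyd6 5.93 and Hmgn3 5.05, all with no overlap between the fractions. The share of all genes without overlap was not counted. The enzymes and transporters among the 15 genes were mixed. Acsl6 was 4.19 higher (SE 0.448, limma adjusted p = 5.70e-06) and Psat1 2.63 higher (SE 0.254, limma adjusted p = 2.22e-06), without overlap, and Hacd1 0.99 higher (limma adjusted p = 0.00711) with overlap. Glud1 was 0.92 lower (log2 difference -0.92, SE 0.135, limma adjusted p = 0.000101), Car2 0.65 lower (-0.65, adjusted p = 0.0111) and Slc5a9 0.91 lower (-0.91, adjusted p = 0.00127), each with overlapping libraries. Gstt1 was 0.63 higher with overlap (limma adjusted p = 0.00233). Gstk1 and Hibadh did not pass the test, with log2 differences of -0.29 (adjusted p = 0.231) and -0.21 (adjusted p = 0.289). Ddc differed by 0.20 (limma adjusted p = 0.370). The call of Car2 was lost without CCK+ fasted library A and within either feeding state alone. Genes low in members were also high in CCK+ cells, with Sct at 7.38, Pyy at 6.84, Serpina1c at 5.82 and Syt7 at 4.77.

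**Figure D5:**
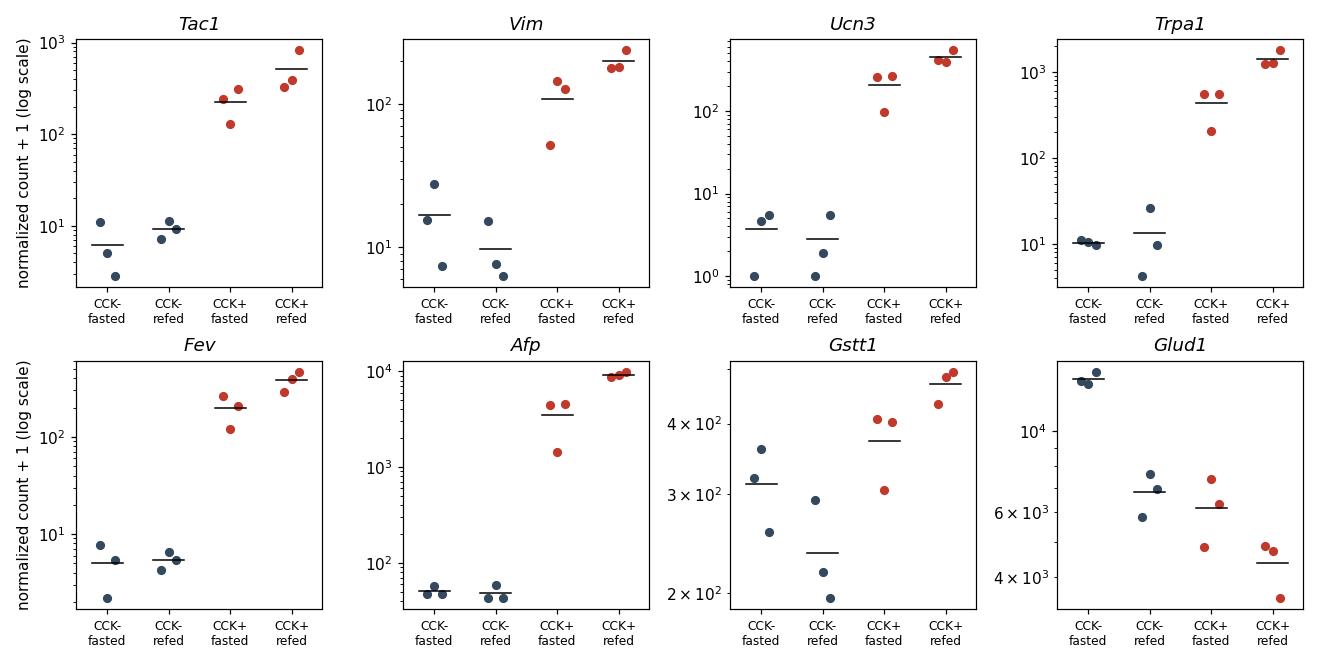
Normalized counts plus 1 (log scale) of 8 genes in each of the 12 bulk libraries, by fraction and feeding state; the line is the mean of 3 libraries. Tac1, Vim, Ucn3, Trpa1, Fev and Afp show no overlap between CCK+ and CCK- libraries, whereas Gstt1 and Glud1 do. The share of all genes without overlap was not counted.

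After refeeding, few genes of the members changed. In CCK+ cells 289 genes rose (1.31%) and 272 fell (1.23%) over the whole table. Of the 75 genes, 3 rose (Afp, Hspa4l and Rnf149) and 2 fell (Slc13a1, and Ick, listed there as Cilk1). Of the 72 lower genes, Hmgcs1, an enzyme of cholesterol synthesis, rose and Crip1 fell. Among the 1390 droplet-read genes, 4.60% rose and 1.15% fell. Afp was at 4410, 1422 and 4610 in fasted and 8708, 9168 and 9860 in refed CCK+ libraries, which do not overlap, a rise of 1.59 (SE 0.335, limma adjusted p = 0.0228). The call of Afp was lost in 8 of 17 alternatives, 7 of them leaving out 1 library. Those of Slc13a1 were lost in 10, of Hmgcs1 and Crip1 in 7 each, of Rnf149 in 5 and of Cilk1 in 2, and no gene was called at all when only the 6 CCK+ libraries were fitted.

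Tac1 differed by 1.17 between refed and fasted CCK+ cells (SE 0.502, limma adjusted p = 0.256), with no overlap of the libraries. Vim differed by 1.01 (limma adjusted p = 0.351), Ucn3 by 1.25 (0.399) and Trpa1 by 1.82 (SE 0.524, limma adjusted p = 0.0877). For Trpa1, the fasted libraries were at 555, 204 and 544 and the refed at 1220, 1269 and 1780. None of these 4 genes passed the test. Each was higher in every refed than in every fasted CCK+ library, but how many of all genes are so was not counted. The lack of overlap is therefore not read as a rise.

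In CCK- cells 156 genes rose (0.708%) and 116 fell (0.526%) after refeeding. Of the 75 genes, Ceacam20, Hspa4l and Psat1 rose, and Cilk1, Cited2, Glud1, Me2 and Slc13a1 fell. Among the 1390 droplet-read genes, 1.87% rose and 1.51% fell. Of 17 alternatives, 14 ended the calls of Ceacam20 and Slc13a1, 12 that of Psat1, 11 that of Cited2, 10 that of Cilk1 and 7 that of Me2. Glud1 was at 13651, 13436 and 14451 in fasted and 5849, 7626 and 6951 in refed libraries, a fall with log2 difference -1.03 (SE 0.191, limma adjusted p = 0.0188) that was lost in 8 of 17 alternatives. Hspa4l, a heat shock protein, rose in both fractions, by 1.36 (limma adjusted p = 0.0273) in CCK+ and 1.35 (limma adjusted p = 0.0421) in CCK- cells. The call of Hspa4l was lost in 9 of 17 alternatives in CCK+ cells and in 14 of 17 in CCK- cells. No gene named here passed the test of the difference in refeeding response between the fractions.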

How the data were processed

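The droplet counts were deposited by the authors as raw UMI counts per gene and barcode, aligned to mm10 with Cell Ranger 2.0.1 per the submitters' processing notes, for 475960 barcodes with a UMI and before any call of cells. The bulk values, of the kind signal, are gene counts that the authors made with Trim Galore 0.6.7 and Salmon 1.6.0 and divided by DESeq2 normalization factors, so that the read depth of each library is not known from them. The libraries had 16656 to 18855 genes above 0.

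Cells were selected by the rule in the text in Python 3.11.15 (scanpy 1.11.5, pandas 2.3.3, scipy 1.17.1, numpy 2.4.6). UMIs were not corrected for free RNA. The members, gene lists and limits were chosen with earlier results of these data known. The genes named are the 15 with the highest and the 15 with the lowest ratios, the 5 markers, and listed genes past 2-fold at a mean level of at least 0.2. Some listed genes outside this rule, all genes called after refeeding, Ccl5, Gzma and the values of Reg4, Chga, Chgb and Lmx1a were named after their values were seen. The UMI count above which Cell Ranger would call a cell, 3892, was passed by 34 members (27.6%) and 320 Tac1-low cells (19.8%). Most members and most Tac1-low cells thus lay below it. No barcode is shared between libraries, since there is 1. The automatic threshold of a doublet caller marked 0 of 9451 cells and so did not work; the 715 highest scores were used instead.

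Bulk data were fitted with limma 3.58.1 in R 4.3.3 on log2(normalized count + 1) over all 22042 genes, the 4 groups in 1 fit with a variance trend, and an adjusted p under 0.05 was called. This and the droplet code were tested on simulated data with known changes. The droplet pool and the bulk groups are 1 experiment each, and p-values measure the spread between libraries within it. Alternatives were other limits on cells and genes, depth thinning, free-RNA subtraction, other pseudocounts and filters, feeding states apart, pairing by library letter, and leaving out each library; 3 of them were chosen after the data were seen: leaving out cells with T cell genes, subtraction at the Zg16 share, and a limit of 60 against the same Tac1-low cells.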

Additional observations from a re-analysis of the deposited data

How the results depend on the processing

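The number and share of members followed the limits. A Tac1 limit of 15 gave 215 members (12.4% of EC cells) and a limit of 60 gave 59 (3.40%). A Tph1 limit of 20 gave a share of 5.73%, a minimum of 1500 genes 46 members (9.79%), and the Cell Ranger limit 34 members (9.60%). The pools with Y-linked UMIs alone and with Xist alone held 21 and 30 members. A mean level of at least 0.5 gave 148 genes higher and 116 lower, one of at least 3 gave 25 and 36, and comparison with Sct-high cells alone gave 136 higher. No call of a gene named here was reversed under the alternatives run. Over all genes read, 1 gene was called on the opposite side in the Xist pool. The ratios were less stable, with 179 ratios of named genes marked as moved over the alternatives and 545 as the same. Of the genes called higher, 72 of 76 were also higher in the main comparison under a Cck limit of 50. At the Cell Ranger limit these were 57 of 79, and in the pool with Y-linked UMIs alone 56 of 101.

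In the bulk data, fasted libraries alone gave 2169 genes called between CCK+ and CCK- cells against 7431. They left 27 of the 75 genes higher and 7 lower, and 6 of the 72 lower, and they ended the calls of Vim, Mnx1, Dusp2, Car2, Gstt1, Slc5a9, Hacd1, C2cd4b, Tgfb1 and Spink1. Refed libraries alone ended those of Car2, Glud1 and Glod5. Fewer libraries enter these fits. For refeeding, 561 genes were called in CCK+ and 272 in CCK- cells, against 0 and 63 when only the groups compared were fitted. Leaving out 1 library at a time gave 6520 to 7618 genes between the fractions, 103 to 876 for refeeding in CCK+ and 79 to 268 in CCK- cells. The call of Car2 was lost without CCK+ fasted A. In CCK+ cells the count was 876 without CCK+ fasted A, 193 without B, 351 without F, 103 without CCK+ refed D, 183 without E and 333 without CCK- refed D. In CCK- cells it was 172 without CCK+ fasted F, 143, 107 and 165 without CCK+ refed C, D and E, 101, 92 and 144 without CCK- fasted A, B and F, and 119, 79 and 89 without CCK- refed C, D and E.

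Libraries of the 2 fractions share the letters A to F. After the group means were subtracted, those with the same letter correlated over genes by 0.0463 to 0.0650 in 6 pairs and those with other letters by -0.0455 to -0.00973 in 12, so that each library correlated best with its own letter. This is a hint from the data, not a stated design. With the letter as a block (a pairing by letter), 7445 genes were called between CCK+ and CCK- cells, 576 for refeeding in CCK+ and 283 in CCK- cells. S100a10 was then called lower in CCK+ cells (log2 difference -0.37). What limits these results is 1 droplet library, few UMIs per cell for genes such as Mnx1 and Slc18a2, and 3 libraries per bulk group. The cause of the differing refeeding counts was not tested.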
